A study of Mus musculus with 4 samples.

Results

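The core beta cell transcription factors studied here are 9 genes, Pdx1, Nkx6-1, Nkx2-2, Neurod1, Isl1, Pax6, Foxa2, Rfx6 and Insm1, which were chosen by name and were all present among the 30905 genes of the count tables. Their levels were read in beta cells of mouse pancreatic islets and set beside alpha and delta cells of the same islets. A cell was taken as a beta cell when Ins1 and Ins2 made up at least 20% of its UMIs (unique molecular identifiers, each 1 captured RNA molecule), as an alpha cell at 10% or more Gcg, and as a delta cell at 5% or more Sst. The 9 factors took no part in these gates.

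Single-cell RNA was captured with 10x Genomics 3′ chemistry in 4 libraries, 1 for each labelled group: normal control at 98 days of age, early db/db at 70 days, late db/db at 98 days, and late db/db with intervention at 98 days. Db/db mice lack a working leptin receptor and become obese and diabetic. Males were used, and the db/db mice entered the study once their blood glucose was high. Every library, the control too, has the genotype label db/db (C57BL/KsJ), although C57BL/6 mice are also named in the growth protocol, so which strain served as control cannot be read from the labels. The intervention is not described in the labels, and how many mice went into a library is not stated. In the text the 4 libraries are called control, early, late and intervention. Early db/db differs from the other groups in age as well.

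Each factor binds DNA and switches genes on or off. Foxa2 opens chromatin in the early pancreas, Pdx1 marks the pancreatic bud and later drives insulin transcription, and Nkx6-1, Nkx2-2, Neurod1, Isl1, Pax6, Rfx6 and Insm1 act in endocrine progenitors and then maintain hormone cells. Loss of Pdx1, Nkx6-1, Nkx2-2, Neurod1 or Pax6 from adult mouse beta cells is known to blunt insulin secretion and to let genes of other cell types appear.

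The promoters of 4 factors are shown because they mark the ends of the range of values given later: Nkx6-1 and Neurod1 had the lowest ratios to the control in beta cells of early and late db/db, Pdx1 differed in direction between beta and delta cells, and Rfx6 alone was not lower in any beta cell comparison with the control beyond counting error. Each is the RefSeq window on GRCm38.p6 from 250 bases before the annotated start to 50 bases from it, written 5′ to 3′. Nkx6-1 is at chr5:101664662-101664961, minus strand, Neurod1 at chr2:79456587-79456886, minus strand, Pdx1 at chr5:147269847-147270146, plus strand, and Rfx6 at chr10:51685268-51685567, plus strand. Capitals mark the letters of any of 6 motifs searched on both strands.
Nkx6-1: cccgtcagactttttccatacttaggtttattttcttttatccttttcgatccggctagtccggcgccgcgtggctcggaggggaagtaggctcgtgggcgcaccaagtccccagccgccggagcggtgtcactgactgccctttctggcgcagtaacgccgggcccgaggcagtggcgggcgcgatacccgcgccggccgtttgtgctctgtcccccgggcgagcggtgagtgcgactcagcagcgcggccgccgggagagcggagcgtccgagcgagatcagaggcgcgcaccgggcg
Neurod1: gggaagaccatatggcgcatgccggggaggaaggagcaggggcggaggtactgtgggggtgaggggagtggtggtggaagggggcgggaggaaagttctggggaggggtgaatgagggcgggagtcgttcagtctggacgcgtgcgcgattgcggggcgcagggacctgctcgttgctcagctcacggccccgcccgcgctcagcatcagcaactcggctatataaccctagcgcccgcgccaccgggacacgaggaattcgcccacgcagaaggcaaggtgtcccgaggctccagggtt
Pdx1: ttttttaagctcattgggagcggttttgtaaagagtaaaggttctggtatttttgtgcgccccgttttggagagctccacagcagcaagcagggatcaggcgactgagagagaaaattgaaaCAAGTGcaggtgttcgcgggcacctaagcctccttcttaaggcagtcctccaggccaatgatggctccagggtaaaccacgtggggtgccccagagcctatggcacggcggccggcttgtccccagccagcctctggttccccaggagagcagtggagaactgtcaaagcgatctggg
Rfx6: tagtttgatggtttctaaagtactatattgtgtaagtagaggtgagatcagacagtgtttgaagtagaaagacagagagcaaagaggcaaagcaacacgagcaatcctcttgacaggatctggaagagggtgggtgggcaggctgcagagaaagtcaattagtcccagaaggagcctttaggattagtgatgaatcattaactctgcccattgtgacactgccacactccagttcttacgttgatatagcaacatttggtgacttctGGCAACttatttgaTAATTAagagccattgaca

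The first motif was CAGATG, an E-box of the type that Neurod1 binds. The second was TGTTTAC, which forkhead factors such as Foxa2 bind. Homeodomain factors were searched with TAATTA, and RFX factors with the X-box letters GTTGCC. The TATA box was searched as TATAAA. The last motif was CACTTG, of the type that Nkx2-2 binds. No matches overlapped in these windows. The Pdx1 window held the Nkx2-2 type letters as CAAGTG at position -128 from the start, and 13.6% of all 32851 promoter windows held that motif. The Rfx6 window held the X-box letters as GGCAAC at position 17, a motif of 12.5% of windows, and TAATTA at position 31, found in 5.29% of windows. The Nkx6-1 and Neurod1 windows held none of the 6. The Rfx6 start of RefSeq lies inside the longer GENCODE span of the gene. Promoters of 8 of the 9 factors were matched, and Insm1 had no entry. Among the 8 factors, the E-box was in a window of Nkx2-2 (17.2% of all windows), the X-box also in one of Pax6, the TATA box in one of Foxa2 (13.6%), the Nkx2-2 type also in one of Nkx2-2 itself, and the forkhead motif in none (3.65%).

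The gates gave 2327 beta cells in the control, 1542 (early), 749 (late) and 3233 (intervention). Alpha cells numbered 1058, 780, 141 and 553, and delta cells 463, 297, 126 and 261, in the same order. Library totals ran from 120934779 to 166034254 UMIs. Delta cells held Hhex at 307.1 to 482.2 CPM (UMIs of the gene scaled to the same total in every class and library), against at most 3.7 CPM in beta cells. Alpha cells held 185.4 to 228.8 CPM of Irx2, against 2.0 to 4.2 CPM in beta cells. The CPM denominator was the UMIs of genes other than mitochondrial genes and 7 hormone genes (Gcg, Sst, Ppy, Pyy, Iapp and both insulin genes), since insulin alone took a median of 63.9, 49.2, 43.1 and 47.3% of a beta cell's UMIs in the control, early, late and intervention libraries. Endothelial and macrophage cells, which should lack the factors, served as reference cells and held each factor at 0 to 16.2 CPM, a level that free RNA can give. The early library was taken by its sample label, although the name on its matrix resembles that of the control. Its beta cells held Mafa at 30.8 CPM and Aldh1a3 at 364.9 CPM, where the control had 1052 and 3.4 CPM and the late library 36.6 and 428.3 CPM. Pairs of libraries shared 8 to 21 cell barcodes. Each group is 1 library, so no test between groups was possible, no spread between mice is known, and every interval given here is a 95% interval that covers counting error only.

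Nkx6-1 and Pdx1 are the homeodomain factors most tied to beta cell identity. Nkx6-1 (GRCm38 chr5:101658139-101664996, minus strand) represses alpha cell genes in beta cells and supports insulin secretion. In beta cells it stood at 587.3 CPM in the control, 192.6 (early), 230.5 (late) and 334.0 (intervention). The control was highest, the intervention library next, and the 4 counting intervals did not overlap. The log2 ratio to the control was -1.61 (-1.65 to -1.57) for early, -1.35 (-1.39 to -1.31) for late and -0.81 (-0.84 to -0.78) for intervention. Late db/db beta cells thus held 2.55-fold fewer Nkx6-1 CPM, and 4.97% of the 4185 genes compared had a lower ratio. In alpha cells Nkx6-1 stood at 31.9, 17.8, 29.2 and 31.8 CPM, and in delta cells at 27.7, 4.0, 9.9 and 16.2 CPM, in the order control, early, late, intervention. Reference cells held 8.32, 1.90, 2.01 and 7.36 CPM in that order. The delta cell values rest on 120, 8, 17 and 26 UMIs, and they were highest in the control, where reference cells were highest too.

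Pdx1 (chr5:147269959-147275848, plus strand) activates the insulin genes, Slc2a2 and Mafa in beta cells and is also made by delta cells. In beta cells it stood at 238.6 CPM in the control, 121.2 (early), 143.0 (late) and 163.7 (intervention). The control was again highest and the 4 intervals did not overlap. Its log2 ratio to the control was -0.98 (-1.04 to -0.92) for early, -0.74 (-0.80 to -0.68) for late and -0.54 (-0.59 to -0.50) for intervention. Delta cells held 129.9 CPM in the control and 176.1, 169.5 and 183.4 CPM in the early, late and intervention libraries, so there the control was lowest. Delta cells of late db/db stood 0.38 (0.17 to 0.59) above the control on the log2 scale. Alpha cells held 1.2 to 7.6 CPM, close to the 0 to 6.63 CPM of reference cells, which is background and not read as expression.

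A long non-coding gene, Plut (chr5:147228596-147271521, minus strand), overlaps Pdx1 on the opposite strand. Since strand use in the counting is not stated in the sources used here, reads of this pair cannot be assigned with certainty. Plut was named after its values were seen. It stood at 100.8 CPM in control beta cells, 8.12 (early), 9.63 (late) and 36.7 (intervention), from 3356, 240, 252 and 1714 UMIs. The control was highest, and the early and late libraries were lowest. The log2 ratio to the control was -3.63 (-3.83 to -3.44) for early, -3.39 (-3.58 to -3.20) for late and -1.46 (-1.54 to -1.37) for intervention. Each of these was further from 0 than that of Pdx1 in the same comparison, and each stayed below -1 with all UMIs as denominator. Delta cells, which held Pdx1, gave Plut at 3.98 to 8.71 CPM, and alpha cells at 0 to 2.44 CPM.

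**Figure D1:**
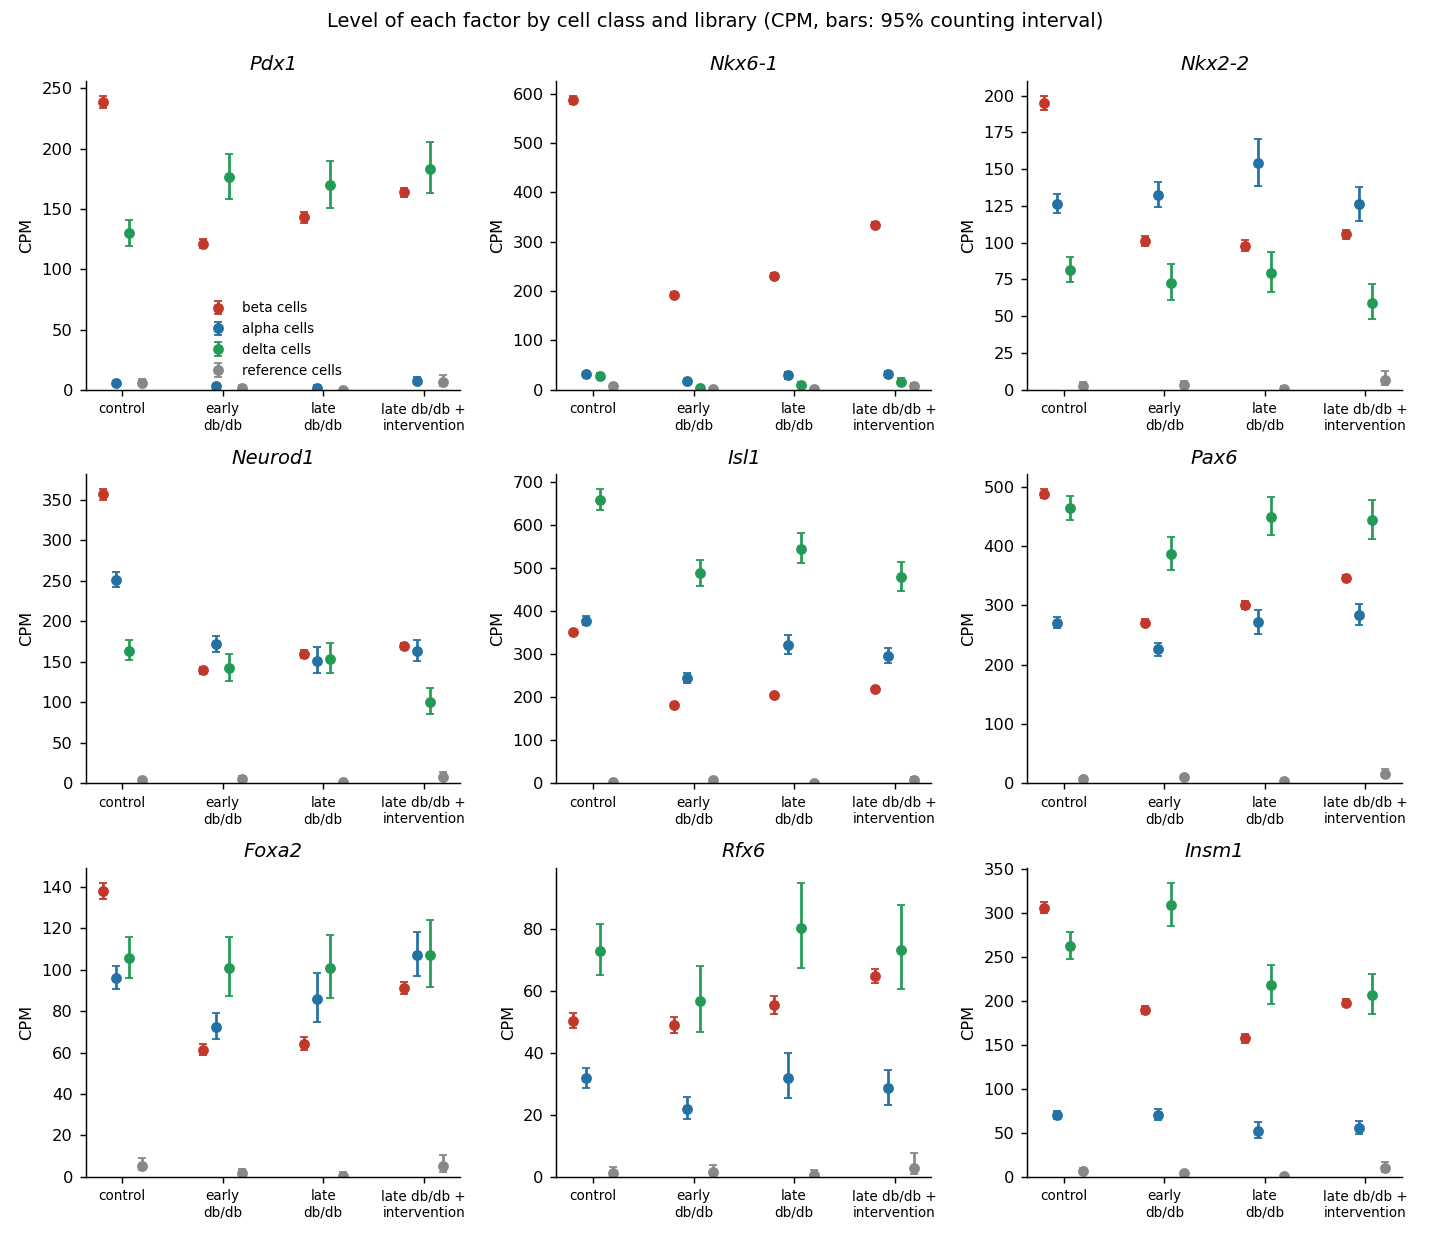
Level of each of the 9 factors as CPM (linear vertical axes, each gene on its own scale) in beta, alpha, delta and reference cells of the 4 libraries, 1 library per group. Points are sums over the cells of a class and bars are 95% Poisson intervals that cover counting error only. Beta cells of the control sit highest among the beta cells for 8 factors, while Rfx6 is highest in the intervention library at 64.7 CPM.

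Foxa2 (chr2:148042877-148046969, minus strand) is a forkhead factor that opens closed chromatin and acts on Pdx1 itself. It stood at 138.1 CPM in control beta cells, 61.5 (early), 64.3 (late) and 91.2 (intervention). The intervals of early and late db/db overlapped, and the intervention library lay between them and the control. The log2 ratio to the control was -1.17 (-1.25 to -1.09) for early and -1.10 (-1.18 to -1.02) for late. Alpha cells held 72.6 to 107.2 CPM and delta cells 100.8 to 107.0 CPM. In delta cells all 4 intervals overlapped, with a log2 ratio of late db/db to control of -0.07 (-0.33 to 0.19).

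Neurod1 (chr2:79452521-79456751, minus strand) is a basic helix-loop-helix activator of the insulin gene. It stood at 356.7 CPM in control beta cells, 139.7 (early), 159.6 (late) and 169.0 (intervention). The 3 db/db libraries lay near each other and well below the control. The log2 ratio to the control was -1.35 (-1.40 to -1.30), -1.16 (-1.21 to -1.11) and -1.08 (-1.12 to -1.04) in the early, late and intervention libraries. Alpha cells showed the same order of control over the others, with 251.5, 172.0, 151.5 and 163.4 CPM, and a log2 ratio of late db/db to control of -0.73 (-0.89 to -0.57), below that of all but 2.17% of the genes compared in alpha cells. In delta cells Neurod1 stood at 163.8, 141.8, 153.8 and 100.7 CPM, where the intervention library was the lowest. Cerkl overlaps Neurod1 on the same strand, and its 974, 532, 514 and 945 UMIs in beta cells are few beside the 11880, 4130, 4177 and 7902 of Neurod1.

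Nkx2-2 (chr2:147177546-147194243, minus strand) is a homeodomain factor of beta and alpha cells that represses the genes of neighbouring fates. It stood at 195.1 CPM in control beta cells and at 101.1, 97.9 and 105.7 CPM in the early, late and intervention libraries. The last 3 overlapped in pairs of neighbours, and the control lay apart. The log2 ratio to the control was -0.95 (-1.01 to -0.89), -0.99 (-1.06 to -0.93) and -0.88 (-0.94 to -0.83). Alpha cells held 126.3, 132.4, 154.0 and 126.0 CPM, where late db/db was the highest, standing 0.29 (0.12 to 0.45) above the control on the log2 scale.

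Isl1 (chr13:116298281-116309689, minus strand) is a LIM-homeodomain factor needed by all islet hormone cells. Beta cells held it at 350.5, 181.0, 204.4 and 220.0 CPM in the control, early, late and intervention libraries. Delta cells were the highest class in every library, at 658.6, 488.1, 545.2 and 480.1 CPM, and alpha cells held 377.7, 244.9, 322.0 and 296.4 CPM. The control was highest in all 3 classes. The log2 ratio of late db/db to control was -0.78 (-0.82 to -0.73) in beta, -0.23 (-0.34 to -0.12) in alpha and -0.27 (-0.38 to -0.17) in delta cells.

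Pax6 (chr2:105668900-105697364, plus strand) is a paired-domain factor that activates hormone genes. Beta cells held it at 488.6, 270.4, 300.9 and 345.9 CPM, with 4 separate intervals and the control on top. The log2 ratio of late db/db to control was -0.70 (-0.74 to -0.66) in beta cells, 0.00 (-0.12 to 0.12) in alpha cells and -0.05 (-0.17 to 0.07) in delta cells. In early db/db the other classes were lower than the control too. There the log2 ratio was -0.85 (-0.89 to -0.81) in beta, -0.26 (-0.35 to -0.18) in alpha and -0.26 (-0.39 to -0.14) in delta cells. The antisense gene Pax6os1 overlaps it and gave 320 to 830 UMIs in beta cells, against 7873 to 16271 for Pax6.

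Insm1 (chr2:146221921-146225020, plus strand) is a zinc-finger repressor of the endocrine lineage. Beta cells held it at 305.9 CPM in the control, 189.5 (early), 157.2 (late) and 197.7 (intervention). In beta cells it was the factor whose late db/db level was furthest below early db/db, at a log2 ratio of -0.27 (-0.33 to -0.21). With all UMIs as denominator that ratio was -0.08. Late db/db was below early db/db in the other classes too, at -0.43 (-0.72 to -0.15) in alpha and -0.50 (-0.69 to -0.32) in delta cells. Delta cells held 262.1, 309.0, 217.8 and 206.4 CPM, and alpha cells only 52.2 to 70.3 CPM.

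Rfx6 (chr10:51677756-51730432, plus strand) is a winged-helix factor that acts upstream of Pdx1 in the gut and later keeps calcium channel genes active in beta cells. It was the exception among the 9. Beta cells held it at 50.4 CPM in the control, 48.9 (early), 55.4 (late) and 64.7 (intervention), where the intervention library was the highest and the first 3 overlapped in pairs of neighbours. The log2 ratio to the control was -0.04 (-0.15 to 0.06), 0.13 (0.03 to 0.24) and 0.36 (0.27 to 0.45). With all UMIs as denominator these became 0.36, 0.73 and 0.77, so the sign in early db/db turned. In UMIs per beta cell, with no denominator, Rfx6 stood at 0.722, 0.938, 1.93 and 0.936.

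Set together, 3 of the 9 factors (Nkx6-1, Neurod1 and Foxa2) were at least 2-fold lower in beta cells of late db/db than of the control, and none was 2-fold higher. Over all 4185 genes compared, 11.2% were at least 2-fold lower and 4.37% at least 2-fold higher. A gene was compared when it reached 50 CPM in the higher library and 50 UMIs in both together, and all 9 factors were. The median log2 ratio of the 9 was -0.96, against -0.29 over all genes. In early db/db the same 3 factors were at least 2-fold lower and none higher, with 16.6% of 4252 genes lower and 5.32% higher, and the median of the 9 was -0.95 against -0.24. In the intervention library Neurod1 alone was lower and none higher, with 7.84% of 4172 genes lower and 4.1% higher, and the median was -0.63 against -0.33. The 3 comparisons share the control library and are not independent of each other. In alpha cells 6 of the 9 factors could be compared between late db/db and control and none was 2-fold apart, with 0.981% of 3363 genes lower and 1.46% higher. In delta cells 8 could be compared and none was 2-fold apart, with 0.852% of 4110 genes lower and 1.9% higher.

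These counts depended on the denominator. Counting all UMIs moved every beta cell log2 ratio of late db/db to control by 0.60, which left 0 factors at least 2-fold lower (3.01% of 1429 genes), and TMM scaling moved them by 0.35 and left only Nkx6-1 (4.57% of 4068 genes). In early db/db Nkx6-1 alone was 2-fold lower with all UMIs (4.82% of 1390 genes) and with TMM (6.26% of 4202 genes). In the intervention library none was, with 2.52% of 1268 genes and 2.99% of 4042 genes. The 8 factors other than Rfx6 stayed below 0 in all 3 comparisons under both. For Nkx6-1 in late db/db the log2 ratio with all UMIs was -0.75.

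Molecules per cell gave another view, since depth per cell differed. A beta cell held a median of 14042 UMIs outside hormone and mitochondrial genes in the control, 20175.5 (early), 36377 (late) and 14893 (intervention). The 9 factors together gave 38.8, 25, 49.4 and 24.5 UMIs per beta cell in that order. Late db/db was thus the highest by this measure, while it held 1413 CPM of the 9 factors against 2711 in the control. For Nkx6-1, the UMIs per beta cell were 8.40, 3.69, 8.05 and 4.83. More RNA per cell and deeper capture of each cell cannot be told apart here. Alpha and delta cells of late db/db were deeper too, with medians of 17228 and 13918 UMIs outside those genes, against 12019.5 and 9274 in the control.

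**Figure D2:**
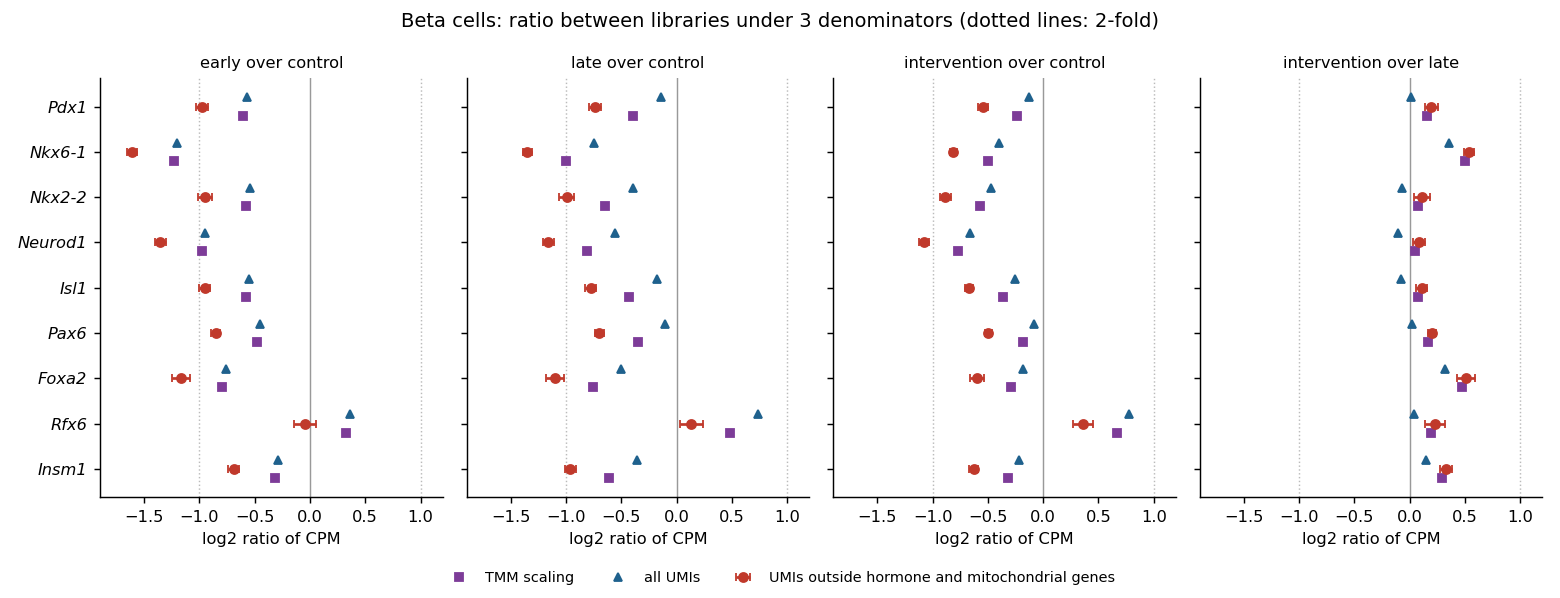
Log2 ratio of CPM in beta cells for each of the 9 factors in 4 comparisons of libraries. Circles use UMIs outside hormone and mitochondrial genes with 95% counting intervals, squares TMM scaling and triangles all UMIs, and dotted lines mark a 2-fold difference. The 8 factors other than Rfx6 lie below 0 in the 3 comparisons with the control under each denominator, and no factor passes a 2-fold difference between the intervention and late db/db.

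Markers of other cell types differed between these beta cells as well. The 6 acinar markers summed to 96.2, 1263, 206.3 and 108.7 CPM in the control, early, late and intervention beta cells, and 0, 5, 1 and 1 of them reached 50 CPM. The 7 duct markers summed to 863.4, 1333, 1133 and 1128 CPM, with 3 of 7 at 50 CPM in each library and Cftr at 0 in the control and early libraries. The 7 T cell markers summed to 0.12, 0.34, 29.9 and 0.34 CPM, with Cd3e, Cd3g, Trbc1 and Cd4 at 0 in the control and Cd8a at 0 in the early and intervention libraries. The 6 B cell markers summed to 50.3, 4.87, 40.4 and 7.91 CPM, with Ms4a1 at 0 in the control and intervention libraries. Of these markers 1, 0, 0 and 0 reached 50 CPM, so a single gene gave nearly all of the control sum. Cells with 3 or more B cell markers made up 0, 0.065, 4.01 and 0.031% of beta cells. The 8 alpha cell markers, Gcg among them, summed to 6416, 14591, 12629 and 22208 CPM, with 3 of 8 at 50 CPM in each library. Their part in the results was not tested. Without the cells that carried 3 or more markers of any non-endocrine class other than acinar and duct, 652 late db/db beta cells remained. The log2 ratio of late db/db to control was then -1.34 for Nkx6-1, -1.16 for Neurod1, -1.07 for Foxa2 and -0.91 for Insm1. This filter did not remove cells by acinar or duct markers, so these values cannot speak to those markers. With acinar and duct markers included, 28 late db/db beta cells remained, under the minimum of 50.

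Late db/db was next set against early db/db, to ask how the factors differed between the 2 ages of db/db mice. None of the 9 was 2-fold apart, with 0.231% of 3463 genes at least 2-fold higher and 0.78% lower. The log2 ratios ran from -0.27 for Insm1 to 0.26 (0.21 to 0.31) for Nkx6-1, and 7 of the 9 were above 0, with a median of 0.18 against -0.06 over all genes. Pdx1 stood at 0.24 (0.17 to 0.31), Neurod1 at 0.19 (0.13 to 0.25) and Rfx6 at 0.18 (0.07 to 0.28). The interval of Nkx2-2 (-0.12 to 0.03) and that of Foxa2 (-0.03 to 0.16) held 0.

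The intervention library was set against late db/db, both from mice of 98 days. None of the 9 factors was 2-fold apart, with 0.898% of 3453 genes at least 2-fold higher and 0.521% lower. All 9 log2 ratios were above 0, led by Nkx6-1 at 0.54 (0.49 to 0.58), Foxa2 at 0.50 (0.42 to 0.59) and Insm1 at 0.33 (0.28 to 0.38). Of all genes, 95.9% had a lower ratio than Nkx6-1 and 95.1% a lower one than Foxa2. The other 6 ran from 0.08 for Neurod1 to 0.23 for Rfx6, and the median of the 9 was 0.20 against -0.01 over all genes. With all UMIs as denominator, Nkx2-2, Neurod1 and Isl1 turned to -0.07, -0.10 and -0.08, while Nkx6-1 kept 0.35 and Foxa2 0.32. Every factor other than Rfx6 remained below the control in beta cells of the intervention library. In alpha cells 4 of 6 factors compared with late db/db were above 0, and in delta cells 2 of 8. Foxa2 was among those higher in alpha cells, at 0.32 (0.08 to 0.57). Its beta cell log2 ratio minus that of alpha cells was 0.18 (-0.07 to 0.44), and -0.004 with all UMIs.

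Other genes around the factors were read from fixed lists in the same beta cells, using the same 2-fold rule. Of 26 other islet transcription factors, 10 could be compared between late db/db and control, and 4 were at least 2-fold lower and 1 higher, where 11.2% of all genes were lower and 4.37% higher. Mafa, the insulin activator of mature beta cells, was the lowest at a log2 ratio of -4.84, from 1052 CPM in the control to 36.6 in late db/db. Mlxipl, the carbohydrate response factor, gave -1.55, Tshz1 -1.38 and Prox1 -1.07, and Etv1 gave 1.2. With all UMIs as denominator Mafa gave -4.25, Mlxipl -0.95, Tshz1 -0.78 and Prox1 -0.47, with no sign turned. In the intervention library Mafa stood at 110.3 CPM, a log2 ratio of 1.59 to late db/db and of -3.25 to the control. In early db/db 7 of 10 were 2-fold lower, where 16.6% of all genes were, led by Mafa at -5.10, Tshz1 at -1.88, Mlxipl at -1.68 and Prox1 at -1.46.

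Of 24 partners and cofactors of the 9 factors, 14 could be compared between late db/db and control, and 3 were at least 2-fold lower and 1 higher, beside the same 11.2 and 4.37% of all genes. The corepressor Tle3 gave a log2 ratio of -2.72, from 75.9 to 11.5 CPM, while the related corepressor Tle1 gave 1.13, from 37.9 to 82.9 CPM. Tle corepressors are recruited by Nkx6-1 and Nkx2-2. The DNA methyltransferase Dnmt3a gave -1.46, and Smarca4, the ATPase of a chromatin remodeller that binds Pdx1, gave -1.01. With all UMIs the 4 gave -2.12, 1.73, -0.86 and -0.41 in that order. The same 4 genes passed 2-fold in the same directions in early db/db, though not alone. There 4 of 14 partners were at least 2-fold lower and 1 higher, beside 16.6 and 5.32% of all genes. Between the intervention library and late db/db 11 partners could be compared and none was 2-fold apart. Tle3 was not among them, being under 50 CPM in both, and its level was 25.7 CPM, with 11.5 CPM in late db/db (log2 ratio 1.16, 0.97 to 1.34).

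Of 23 known target genes, 21 could be compared between late db/db and control, and 11 were at least 2-fold lower and 2 higher, again beside 11.2 and 4.37% of all genes. The median of the 21 was -1.05, against -0.29 over all genes and -0.96 for the 9 factors, and with all UMIs it was -0.45. The lowest were Nnat at -5.43, the glucose transporter Slc2a2 at -4.46, the granule protein Sytl4 at -3.50 and the zinc transporter Slc30a8 at -3.31. Chgb, a granule protein, gave 2.03 and Ttr 1.61. In the intervention library 5 targets were at least 2-fold higher than in late db/db and none lower: Slc2a2 at 2.14, Slc30a8 at 1.56, Ins1 at 1.5, G6pc2 at 1.48 and Sytl4 at 1.37. Ins1 and Ins2 belong to this list and also defined the beta cells. Without them, 10 of 19 targets were lower and 2 higher in late db/db than in the control, with a median of -1.05, and 4 of 16 were higher in the intervention library than in late db/db, with a median of 0.81 against 0.20 for the 9 factors and -0.01 over all genes. As above, 0.898% of all genes were 2-fold higher there.

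Within each library, beta cells were set against alpha and delta cells. Pdx1, Nkx6-1 and Insm1 were at least 2-fold higher in beta than in alpha cells in all 4 libraries, where 17.8, 18.2, 16.2 and 14.6% of genes compared were, in the control, early, late and intervention libraries. Rfx6 joined them in the intervention library at 2.27-fold. In the early library it gave 2.24-fold but was below the level a gene needed to be compared. None of the factors was 2-fold lower, with 4.58, 6.49, 6.27 and 6.13% of genes in the same order. Pdx1 gave 40.8-fold in the control, with its alpha cell level at background, and Nkx6-1 gave 18.4-fold (16.7 to 20.4), 10.8-fold, 7.90-fold and 10.5-fold in the 4 libraries. Insm1 gave 4.36-fold, 2.70-fold, 3.01-fold and 3.55-fold. With all UMIs as denominator the log2 ratios of Nkx6-1, in the main values 4.20, 3.44, 2.98 and 3.39, became 3.13, 3.01, 2.64 and 2.87. Those of Insm1, 2.12, 1.43, 1.59 and 1.83, lay between 1.0 and 1.30, and the control, at 1.05, was no longer the highest.

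Nkx2-2, Neurod1 and Foxa2 did not keep 1 side. Nkx2-2 was higher in beta than in alpha cells in the control, at a log2 ratio of 0.63 (0.55 to 0.71), and lower in the early, late and intervention libraries, at -0.39, -0.65 and -0.25. Foxa2 gave 0.52 in the control and -0.24, -0.42 and -0.23 in the others, and Neurod1 gave 0.50, -0.30, 0.08 and 0.05, the last 2 with intervals that held 0. With all UMIs as denominator Nkx2-2, Foxa2 and Neurod1 were already below 0 in the control, at -0.45, -0.56 and -0.57, so the sign within a library rests on leaving out the hormone genes. The beta cell log2 ratio of late db/db to control minus that of alpha cells was -1.28 (-1.46 to -1.11) for Nkx2-2, -1.22 (-1.59 to -0.85) for Nkx6-1 and -0.94 (-1.17 to -0.71) for Foxa2, and with all UMIs -0.54, -0.48 and -0.20. For Neurod1 it was -0.43 (-0.59 to -0.27) and turned to 0.31 with all UMIs. The differences of Isl1, Insm1 and Pax6, at -0.55, -0.53 and -0.70, turned as well, to 0.19, 0.20 and 0.04. Against delta cells the difference was -1.12 (-1.33 to -0.91) for Pdx1, -1.07 for Neurod1, -1.04 for Foxa2 and -0.95 for Nkx2-2, and with all UMIs -0.51, -0.46, -0.43 and -0.34. It was -0.69 for Insm1, -0.65 for Pax6 and -0.51 for Isl1, which became -0.08, -0.04 and 0.10 with all UMIs. For Rfx6 (-0.31 to 0.30) and Nkx6-1 (-0.60 to 0.87, from 17 delta cell UMIs) the interval held 0, and with all UMIs the differences were 0.61 and 0.75.

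Against delta cells, Nkx6-1 was higher in beta cells by 21.2-fold, 48.4-fold, 23.3-fold and 20.7-fold over the 4 libraries, and the early value rests on 8 delta cell UMIs. In the control, Nkx2-2 at 2.39-fold and Neurod1 at 2.18-fold were also at least 2-fold higher, with 9.72% of 4494 genes, and none was 2-fold lower, with 6.52%. With all UMIs the control log2 ratios of Nkx2-2 and Neurod1 were 0.001 and -0.13, so neither was then 2-fold higher. In the other 3 libraries Nkx6-1 alone was higher (8.47, 8.37 and 7.17% of genes) and Isl1 alone was at least 2-fold lower (12.9, 12.4 and 11% of genes). Isl1 gave log2 ratios of -0.91, -1.43, -1.42 and -1.13, and Pdx1 gave 0.88, -0.54, -0.25 and -0.16. With all UMIs the control value of Pdx1 was -0.38, and with TMM the late and intervention values were 0.13 and 0.23, so that its side depends on the denominator. Nkx6-1 stayed above and Isl1 below delta cells in every library under all 3 denominators.

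**Figure D3:**
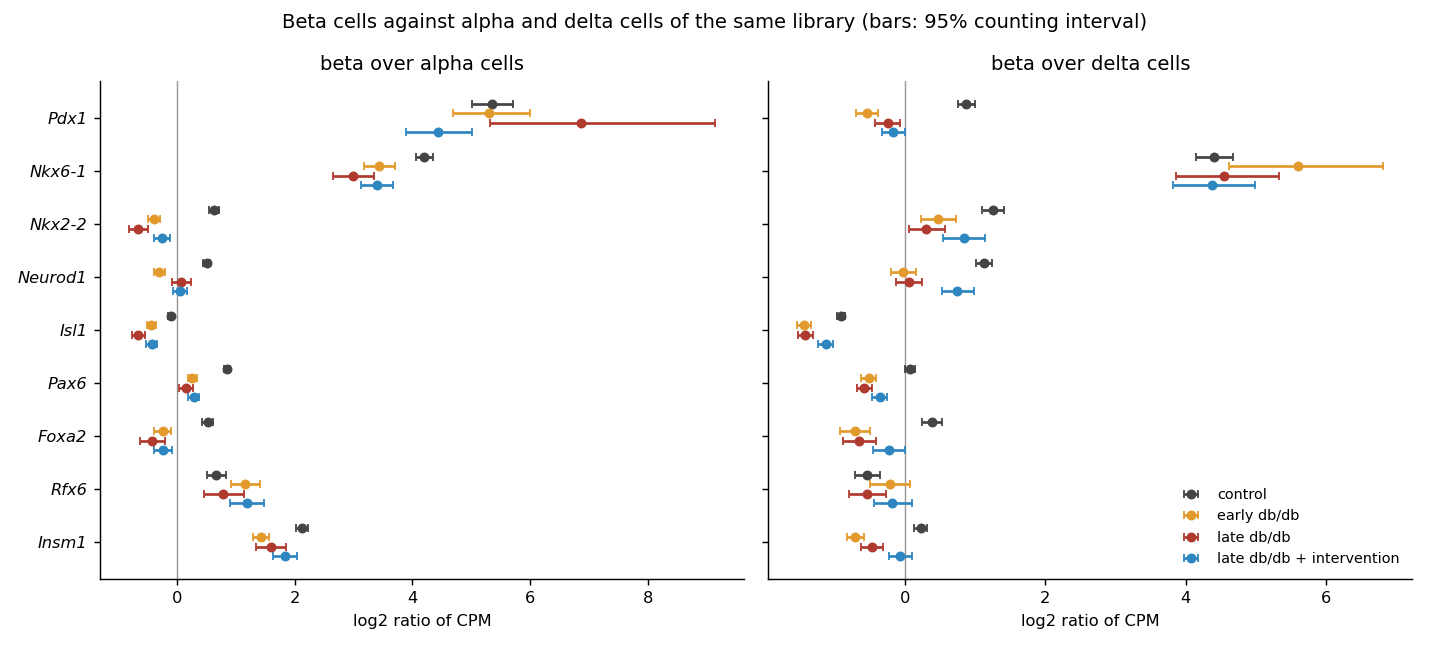
Log2 ratio of CPM in beta cells over alpha cells (left) and over delta cells (right) of the same library, for each factor and each of the 4 libraries, with UMIs outside hormone and mitochondrial genes as denominator and 95% counting intervals. Nkx6-1 lies far above 0 on both sides in every library, and Isl1 lies below 0 on both sides. Nkx2-2, Neurod1 and Foxa2 lie highest in the control on both sides. With all UMIs the control values of all 3 turn below 0 over alpha cells. Over delta cells the control values become 0.001 for Nkx2-2, -0.13 for Neurod1 and -0.87 for Foxa2. The control is then no longer highest for Neurod1 on both sides or for Nkx2-2 over delta cells.

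Single cells were compared after thinning each cell to 5000 UMIs outside hormone and mitochondrial genes, which left out 214, 171, 30 and 548 shallower beta cells in the control, early, late and intervention libraries. The mean number of the 9 factors with a UMI in a beta cell was 6.14, 4.27, 4.40 and 4.89, with SDs over cells of 1.30, 1.54, 1.47 and 1.48. At least 6 factors were found in 70.1, 20.6, 22.0 and 34.1% of beta cells. Alpha cells held means of 3.10 to 3.52 and delta cells 4.35 to 4.58. With this thinning, control beta cells thus held more factors than delta cells. Beta cells of early and late db/db, at 4.27 and 4.40, held about as many. This order rests on leaving out the hormone genes, and these means were not computed with hormone genes counted. With all UMIs as denominator, the control log2 ratio of beta over delta cells was above 0 only for Nkx6-1 (3.15) and Nkx2-2 (0.001). Reference cells held 0.03 to 0.27. Cells are not replicates of a group, and these SDs describe cells of 1 library.

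Shares of beta cells with a UMI, thinned in this way, were highest in the control for 8 of the 9 factors. Nkx6-1 was found in 91.3% of thinned control beta cells (90.1 to 92.5), 58.3% (early), 65% (late) and 77.2% (intervention), against 0.40 to 3.49% of reference cells, whose shares for the 9 factors ran from 0 to 5.50%. Neurod1 was found in 79.8, 47.9, 52.9 and 54.0% of beta cells, and Foxa2 in 47.6, 26.5, 26.2 and 35.5%. Rfx6 was found in 23.8, 19.3, 24.6 and 27.8%. Without thinning, Nkx6-1 was found in 97.6, 86.5, 96.8 and 92.5% and Rfx6 in 47.5, 53.7, 77.0 and 55.7%, where the deep late db/db cells stood near or above the control. Late db/db was then also above the control for Pdx1 (92.9 against 89.4%), Nkx2-2, Isl1, Foxa2 and Insm1. Thinning to 3000 UMIs of all genes, insulin included, left Nkx6-1 in 39.6, 17.7, 27.2 and 33.1% and Neurod1 in 26.0, 14.6, 17.5 and 17.3%. Under it the control and late db/db were close for Pdx1 (17.0% in both) and Isl1 (24.9 and 24.7%), and Pax6 was highest in the intervention library (32.2 against 31.8% in the control). Thinned beta cells had median total depths of 51912, 59270, 89808 and 45563 UMIs before thinning, and reference cells 10481, 8221, 13182.5 and 7320. The variance of thinned Nkx6-1 UMIs over beta cells was 1.5 times the mean in the control and 1.14, 1.33 and 1.39 times in the others, and for Rfx6 the ratio was 0.97 to 1.07.

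**Figure D4:**
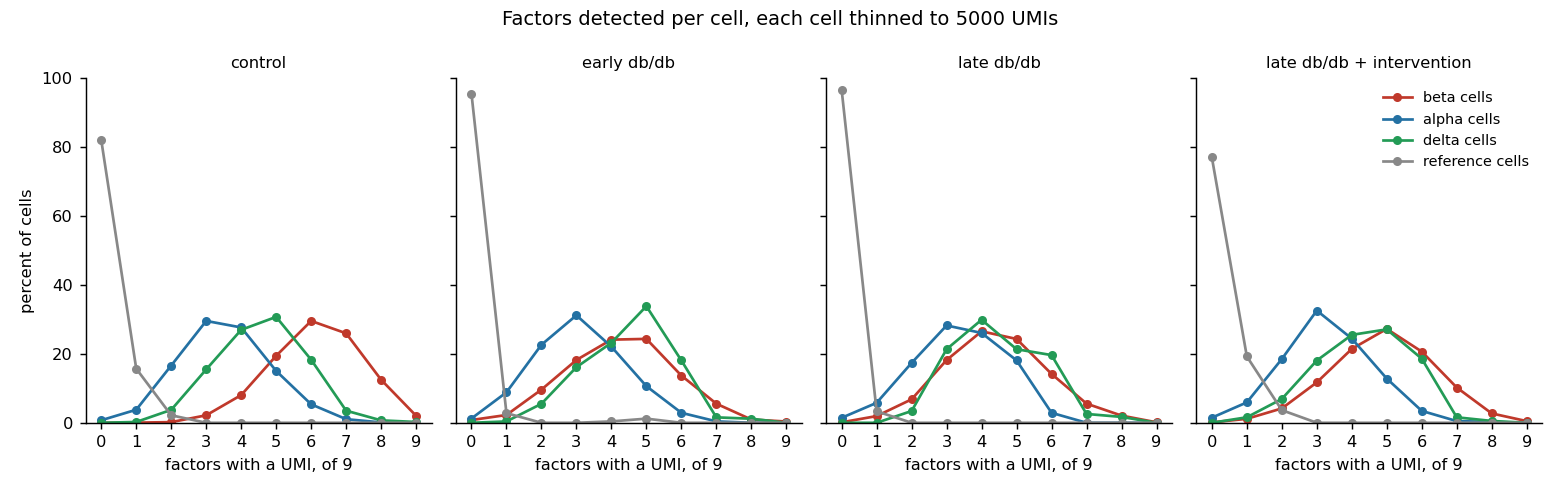
Percent of cells (vertical axis) by number of the 9 factors with a UMI (horizontal axis) in beta, alpha, delta and reference cells, after thinning each cell to 5000 UMIs outside hormone and mitochondrial genes, with 1 panel per library. The beta cell curve peaks at 6 factors in the control, at 5 in the early and intervention libraries and at 4 in the late library.

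The level of the factors was also read along the insulin share that defined the beta cells. Among cells with 50 to 65% insulin, of which there were 1264 in the control, 688 (early), 196 (late) and 1248 (intervention), the 9 factors summed to 2792, 1315, 1480 and 1802 CPM. At this matched insulin share Nkx6-1 stood at 588.2, 202.8, 254.0 and 359.9 CPM, so in this bin the order of the libraries was that seen over all beta cells. In the 20 to 35% bin the intervention library, at 304.7 CPM, stood above the control, at 262.1 (200.9 to 336.0, from 20 cells), and the intervals overlapped. In the intervention library the sum was higher in each higher bin, at 1549, 1652, 1802 and 1982 CPM. The sum ran from 1289 to 1408 CPM in early db/db and from 1387 to 1539 CPM in late db/db, whose top bin held 7 cells; without that bin the late db/db range ended at 1480. The lowest control bin held 20 cells. Rfx6 was lower in each higher bin of the control, at 76.1, 60.8, 54.8 and 44.9 CPM, where the last 2 intervals (51.3 to 58.5 and 41.6 to 48.3) did not overlap and the first rests on 18 UMIs. Cells just outside the 20% gate, with 15 to 20% insulin, numbered 20, 35, 35 and 111, and their sums of 2272, 1500, 1437 and 1533 CPM stood beside 1636, 1357, 1333 and 1612 CPM in the 6, 54, 44 and 146 cells just inside it.

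**Figure D5:**
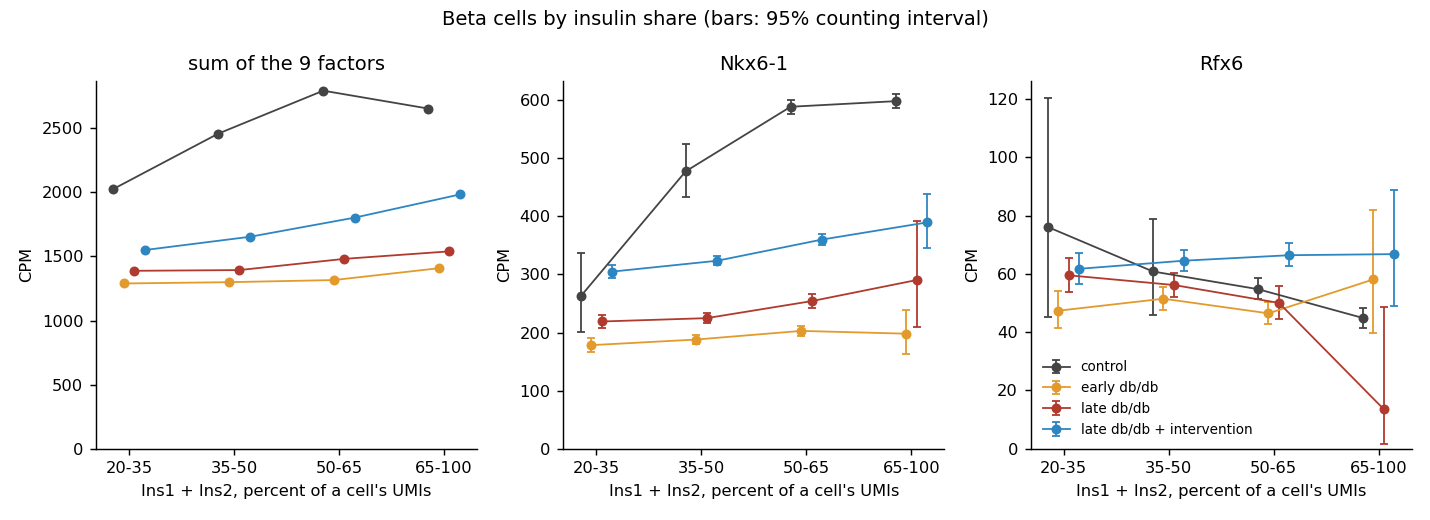
CPM of the sum of the 9 factors, of Nkx6-1 and of Rfx6 in beta cells split by the insulin share of their UMIs, for the 4 libraries. Bars on the single genes are 95% counting intervals, the sum has none drawn, and the lines only join the bins of 1 library. The control lies highest in every bin for the sum, and the top late db/db bin, of 7 cells, has the widest interval of that library.

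Across the 12 points made by 3 cell classes and 4 libraries, some factors had like patterns. Pdx1 and Insm1 had a Pearson r of 0.95 on log2(CPM + 1), Pdx1 and Rfx6 0.89, and Nkx2-2 and Neurod1 0.77, while Nkx6-1 and Isl1 had -0.63. The points share libraries and depths, so these are descriptions. Pdx1 stood at 1.2 to 7.6 CPM in the alpha cell points, read above as background, against 121.2 to 238.6 CPM in beta and delta cells. Every r of Pdx1 given here rests largely on that gap. Among 5115 genes, those most like each factor over the 12 points were Frzb and Vldlr for Pdx1 (0.99 each), Ero1lb and Il1r1 for Nkx6-1 (0.98 and 0.97), and Mtss1l and Ggact for Nkx2-2 (0.97 each). They were Gpd2 and Ddt for Neurod1 (0.93 and 0.90), Wbp4 and Zcchc11 for Isl1 (0.99 and 0.98), and Tshz1 and Upf3b for Pax6 (0.98 each). For Foxa2 they were Ptprf and Papola (0.96 each), for Rfx6 Tmcc3 and Dcx (0.97 each), and for Insm1 Prps1 and Nectin3 (0.99 and 0.98). Ero1lb, an oxidase that folds proinsulin and a gene on the target list, ranged from 27.4 to 2190 CPM over the points.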

How the data were processed

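Single-cell RNA of mouse islets was counted in 4 libraries, 1 per group. The deposited matrices hold UMI counts per gene and barcode with no normalization; per the file headers they were written by Cell Ranger 3.0.0, and per the submitters' processing notes the build is mm10 and CASAVA 1.8 and Seurat were used in roles not stated. The annotation and strand setting used for counting are not given in the sources used here. The columns of barcodes and gene names in the deposited files, unit other, only label those counts.

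Barcodes were kept with at least 1000 UMIs, 500 genes and at most 20% mitochondrial UMIs. Scrublet (scanpy 1.11.5) scored doublets; its automatic threshold marked only 2 of 5115 cells in 1 library and was not used. The top scores were removed instead at 0.8% per 1000 cells (171, 184, 318 and 209 cells, leaving 4458, 4616, 5983 and 4906). Cells that met more than 1 hormone gate were left out (6, 3, 1 and 5). UMIs were summed per class and library, divided by UMIs outside hormone and mitochondrial genes, and given as CPM; 3′ UMI counts were not divided by length. Ratios carry exact conditional binomial, levels exact Poisson and shares exact Clopper-Pearson intervals at 95%. Reference cells met no gate and had UMIs of at least 4 of 8 endothelial or 4 of 7 macrophage markers. Alternatives were all UMIs, TMM (edgeR 4.0.16), stricter filters, only cells of at least 10000 UMIs, no doublet removal, doubled gates, kept multi-gate cells, equal weights, removal of cells with foreign markers, subtraction of the factors' share seen in reference cells, a 1.5-fold threshold, no filter on low values, and thinning to 3000 UMIs or none. The count of genes apart used a 2-fold rule with no test. The interval code was tested on simulated data.

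The factors, gates and gene lists were chosen with earlier results of these data known. Named genes were the 9 factors, list genes at least 2-fold apart (at most 4 per direction, list and comparison) and the 2 genes most like each factor; others named were chosen after their values were seen. Some marker and list genes are not reported here. Positions are from GENCODE M21 (GRCm38) and promoters from RefSeq (GRCm38.p6).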

Additional observations from a re-analysis of the deposited data

Results flagged for a closer look

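Pdx1 had opposite directions in beta and delta cells in all 3 comparisons with the control. Beta cells were lower than the control in late db/db (log2 ratio -0.74), early db/db (-0.98) and the intervention library (-0.54). Delta cells of the same libraries were higher than the control, at 0.38 (0.17 to 0.59), 0.44 (0.24 to 0.63) and 0.50 (0.29 to 0.70), from 291, 354 and 295 UMIs against 562 in the control. The signs were the same with all UMIs as denominator (beta -0.14, -0.57 and -0.13, delta 0.37, 0.36 and 0.38) and with TMM scaling. The difference between the cell types was not tested, since each group is 1 library, and the 3 comparisons share the control. Against the control, smaller opposite pairs were seen in Nkx2-2, at -0.99 in beta and 0.29 (0.12 to 0.45) in alpha cells of late db/db. Insm1 gave -0.69 in beta and 0.24 (0.09 to 0.38) in delta cells of early db/db. In intervention over late db/db, Neurod1 gave 0.08 in beta and -0.61 in delta cells, and Isl1 0.11 and -0.18. There Nkx2-2 gave 0.11 in beta, -0.29 in alpha and -0.42 in delta cells. With all UMIs these 3 beta cell values turned below 0. In late over early db/db, Neurod1 gave 0.19 in beta and -0.18 in alpha cells. All these pairs are untested.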

How the results depend on the processing

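No paired analysis was possible because each group is 1 library. Counts of factors at least 2-fold apart moved as follows. With all UMIs as denominator, the number lower in beta cells went from 3 to 0 in late db/db over control, from 3 to 1 in early db/db and from 1 to 0 in the intervention library. With the same denominator 1 factor was lower in beta than in alpha cells of the control. Against delta cells 3 (control), 5 (early), 5 (late) and 2 (intervention) were lower in beta cells. In the control 1 factor was higher than in delta cells, and Neurod1 there turned to -0.13. This denominator moved every log2 ratio of beta over delta cells by -1.26, -0.77, -0.65 and -0.73 in the 4 libraries. No share over all genes was computed for counts between classes under any alternative, so they are not read as a result about the factors. With TMM scaling 1, 1 and 0 were lower in late, early and intervention over control, and in the intervention library 3 were higher and 0 lower in beta than in delta cells. At a 1.5-fold threshold 8, 8 and 6 factors were lower in late, early and intervention over control. Shares over all genes were not computed at that threshold, nor for the other settings below. Of the factors so called, those nearest to the threshold were Pax6 (late), Insm1 (early) and Foxa2 (intervention). Of all genes, 23.8, 28.7 and 28.9% had a lower ratio than these in the same order. Weighting each cell equally gave 5 lower in early db/db, doubling the gates gave 2 higher over delta cells in the intervention library, and leaving out cells with 3 markers of any non-endocrine class gave 0 lower in the intervention library over control. That last filter left 25 beta cells in early and 28 in late db/db, under the minimum of 50, so it gave no value there; a form without acinar and duct markers was added after seeing the data. The other 270 recomputed counts kept within 1.5 times. Of the single values recomputed, 1080 moved within the counting interval, 341 moved further and 1, that of Neurod1 above, reversed. Signs of single factors turned only in early over control for Rfx6 (all UMIs and TMM), late over early for Nkx2-2 (all UMIs and equal weights) and intervention over late for Nkx2-2, Neurod1 and Isl1 (all UMIs), among the beta cell comparisons.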
